A study of Mus musculus with 9 samples.

Results

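The comparison set TAMH cells kept for 24 h with APAP at 2 mM against TAMH cells kept for 24 h in control culture medium. Each of these 2 groups was 1 Affymetrix mouse 430A_2 array, hybridised with total RNA. The whole series held 9 arrays, 1 for each of APAP at 2 mM, AMAP at 2 mM and control medium at 2, 6 and 24 h, and its design text calls it preliminary. TAMH is a mouse hepatocyte line derived from mice carrying a transforming growth factor alpha transgene. The labels give the strain as C57BL/6 and the tissue as liver, so all groups shared 1 cell line and its transgene. RNA for each treatment came from 2 culture dishes grown to confluence. A gene was taken where at least 2 probe sets carried its symbol alone and stood at or above 5.659 log2, the median of all values of the table, on the higher of the APAP and control arrays. This gave 2673 genes of the 12393 named on the array. Of them, 1807 had 2 such probe sets and 866 had 3 or more, up to 9. A gene was counted as higher or lower only where all of these probe sets were at least 2-fold, 1 log2 unit, apart in the same direction. Probe sets of 1 gene read the same RNA on the same array, so their agreement checks the probes and does not replace a replicate. With 1 array per group there was no replicate error and no test, and every value below is a description of these arrays.

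APAP is acetaminophen, which hepatocytes conjugate with glucuronide and sulfate and oxidise through cytochrome P450 enzymes to the quinone imine NAPQI. NAPQI is taken up by glutathione, and once glutathione is depleted it binds proteins, above all in mitochondria. AMAP is the meta isomer of the same molecule, in which the hydroxyl group sits at another place on the ring, and it is widely used in mouse work as a less hepatotoxic partner compound. In stressed cells p53 drives genes that stop the cycle, repair DNA or promote cell death. The transcription factor ATF4 drives genes of amino acid supply when translation is reduced, and SREBP2 drives cholesterol synthesis when membrane sterol is low.

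The cell line showed liver cell markers on both arrays. Of 23 probe sets of the hepatocyte marker list, 22 stood at or above 5.659 on the APAP array and 22 on the control array, and their summed level was 15.71 log2 with APAP and 15.44 log2 in control. For the endothelial list it was 0 of 16 on each array, and for the macrophage list 1 of 19 on each. For the cholangiocyte list, 7 of 12 probe sets passed on each array. For the stellate cell and fibroblast list, 6 of 23 passed with APAP and 4 of 23 in control, with summed levels of 12.53 and 13.17 log2, and the collagen genes Col1a1, Col1a2 and Col3a1 were under the level on both. The highest members were Vim, an intermediate filament gene, at up to 11.67 log2 with APAP and 11.81 log2 in control, and the proteoglycan gene Dcn at 10.04 and 10.67 log2. The other Vim probe sets read 10.02 and 7.705 log2 with APAP, against 11.02 and 10.66 log2 in control. The part of such cells in the results was not tested. In a bulk RNA sample fewer cells of a type and less RNA per cell cannot be told apart. The 2 arrays differed in the r2-Bs-dap spike-in, a bacterial control transcript read at its 5′ end, middle and 3′ end. Its middle minus 3′ signal was -1.58 log2 on the APAP array at 24 h and -0.48 log2 on its control. AMAP at 24 h (-1.94) and APAP at 6 h (-1.72) were also low, and the other arrays lay between -0.60 and -0.44. A second probe set group for the same transcript gave -0.42 log2 with APAP and -0.71 log2 in control at 24 h. The mouse actin probes gave -0.52 and -0.54 log2. The 5′ minus 3′ signal of the second group did set the same arrays apart. It was -2.26 log2 with APAP and -1.75 log2 in control at 24 h. It was -1.97 log2 on the 24 h AMAP array, -2.11 log2 on the 6 h APAP array and between -1.85 and -1.73 log2 elsewhere. For mouse Gapdh it was 0.10 log2 with APAP and 0.29 log2 in control at 24 h. It went the other way for the r2-Bs-dap group (-0.80 and -1.16 log2) and actin (-0.28 and -0.38 log2). The APAP array itself cannot be left out of this comparison.

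Every probe set was at least 2-fold higher with APAP for 19 genes (0.711% of the 2673) and at least 2-fold lower for 28 genes (1.05%). At 1.5-fold the counts were 121 higher (4.53%) and 86 lower (3.22%), so the balance of the 2 directions turned with the threshold. Other scalings of the same values moved it as well, to 15 higher and 35 lower with cyclic loess and 14 higher and 36 lower with each array centred on its median. These scalings put the median difference of all genes at -0.09 and -0.13 log2. All probe sets were above control by any amount for 883 genes and below it for 623, and 1167 genes had probe sets on both sides. The median over the 2673 genes of each gene's mean difference was 0.02 log2. Agreement differed by direction. A single probe set was 2-fold higher in 125 genes (4.68%), of which 15.2% had every probe set past 2-fold. A single probe set was 2-fold lower in 428 genes (16%), of which 6.54% had every probe set past 2-fold, and in 195 of these genes another probe set was at or above control. The 2-fold threshold fell between St3gal5, at 1.004 log2 in its nearer probe set, and Naaa at 0.99 log2 on the higher side, and between Cd36 at -1.0013 and Ccn4 at -0.9997 log2 on the lower side. The level threshold fell between Sbk1 at 5.659 and Socs5 at 5.657 log2.

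**Figure D1:**
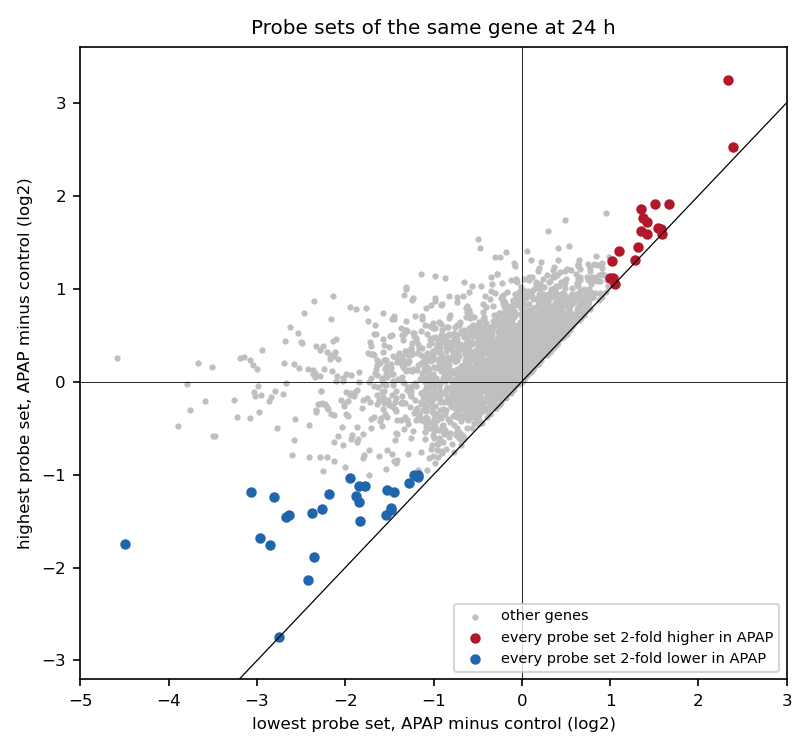
For each of the 2673 genes, the lowest (horizontal axis) and highest (vertical axis) APAP minus control difference over its probe sets at 24 h, in log2, with the diagonal where all probe sets give 1 value. The 19 red genes and 28 blue genes have every probe set 2-fold apart; grey points spread far to the left at heights near 0, where 1 probe set of a gene was much lower with APAP and another was not.

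As a scale, the same count between the control arrays themselves gave 13 genes 2-fold higher (0.507%) and 0 lower (0%) for 24 h over 2 h, and 7 higher (0.267%) and 2 lower (0.0764%) for 24 h over 6 h. Time in culture and the array itself cannot be told apart here. On the higher side the 13 came nearer to the 19 of APAP than the 7 did, and on the lower side both counts were far under its 28. All 19 genes higher with APAP stood above all 3 control arrays in each probe set. Of the 28 lower genes, 24 stood below all 3 control arrays, and Aqp9, Cd36, Socs2 and Vldlr did not. Set against the 2 h control, the APAP array at 24 h had 29 genes 2-fold higher (1.09%) and 13 lower (0.487%), and against the 6 h control 10 higher (0.374%) and 7 lower (0.262%). Of the 19 genes, 16 were again 2-fold higher against the 2 h control and 8 against the 6 h control. Of the 28 genes, 12 and 6 were again 2-fold lower.

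**Figure D2:**
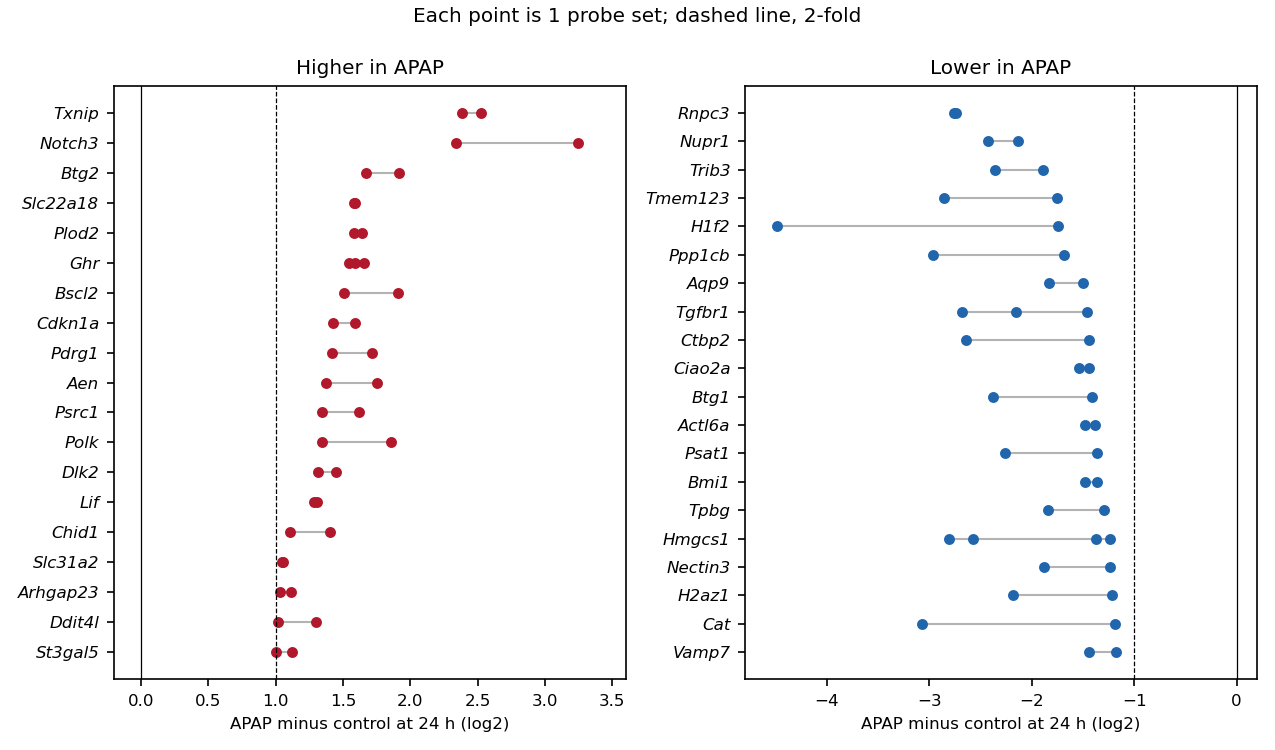
APAP minus control at 24 h in log2 for each probe set of the 19 genes higher with APAP (left) and the 20 lowest genes (right), with the dashed line at 2-fold. Probe sets of Txnip and Rnpc3 lie close together, whereas those of Notch3, H1f2 and Cat span a wide range on the same side.

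Among the 37 pathway lists, p53 targets had the most genes on the higher side. Of 16 list members, 7 had every probe set 1.5-fold higher and 0 had every probe set 1.5-fold lower, beside 4.53% and 3.22% of all genes. The median of their mean differences was 0.64 log2, beside 0.02 log2 over all 2673 genes. Btg2, an antiproliferative cofactor of mRNA deadenylation, read 10.62 and 9.17 log2 in its 2 probe sets with APAP, against 8.96 and 7.26 log2 in control. Cdkn1a, which encodes the cyclin-dependent kinase inhibitor p21, read 8.60 and 10.85 log2 with APAP, against 7.01 and 9.43 log2 in control. These are 2.68-fold to 3.77-fold higher signals, and both genes were higher with APAP than on any control array. Mdm2, the ubiquitin ligase that degrades p53, read 10.27 and 10.82 log2 with APAP, against 9.32 and 9.00 log2 in control. Its probe sets differed in size, at 0.95 and 1.82 log2, and only the second passed 2-fold. Aen, an apoptosis-enhancing nuclease, read 9.59 and 8.47 log2 with APAP, against 8.22 and 6.71 log2 in control. Polk, a DNA polymerase that copies across damaged bases, was 1.34 and 1.86 log2 higher. The 2 of the 7 that are also on the apoptosis list were smaller: Tnfrsf10b, a death receptor, was 0.84 and 1.13 log2 higher and Apaf1, the scaffold of the apoptosome, 0.61 and 0.72 log2. The list was not uniform. Ccng1 (from -0.48 to 1.44 log2) and Trp53inp1 (-0.18 and 1.398 log2) had probe sets on both sides of 0. Ddb2, a DNA damage sensor and textbook p53 target, was lower with APAP (-0.36 and -0.48 log2). Against the 2 h control 7 and against the 6 h control 6 of the 16 members were 1.5-fold higher, where 4.04% and 2.28% of all genes were. Under cyclic loess, median centring and quantile normalization, 5 of 14 members were.

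Txnip led the 19 by its nearer probe set. It encodes thioredoxin-interacting protein, an arrestin-fold protein that binds thioredoxin and curbs glucose uptake. Its probe sets read 10.19 and 10.13 log2 with APAP at 24 h, against 7.67 and 7.74 log2 in control, a 5.753-fold and a 5.231-fold higher signal. On the APAP arrays at 2 and 6 h they read between 7.41 and 7.60 log2, and on the 3 control arrays between 7.45 and 7.82 log2. The 24 h APAP array was therefore the only APAP array on which Txnip stood above the controls. The E-box letters CACGTG, which carbohydrate-responsive factors bind as a pair, were searched on both strands of the RefSeq promoter window of Txnip, from 250 bases before to 50 bases after the start. They were not in it, though 2 of 5 other members of its list and 8.09% of all genes with a window had them. Only these exact letters were searched. A site with other letters would be missed, so the search cannot show that such a site is absent.

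Notch3, a receptor cut on ligand binding to release its intracellular domain, read 6.74 and 6.89 log2 with APAP, against 3.50 and 4.55 log2 in control. Both control values were under the level of 5.659 used to choose probe sets, so the fold is uncertain in size. Among the 11 members of the Notch list, 3 were 1.5-fold higher in every probe set and 0 lower, with a median of 0.20 log2. The other two were the receptor Notch1 (0.70 and 0.91 log2) and Rfng, a glycosyltransferase that modifies Notch receptors (0.72 and 0.74 log2). The count of 3 held under quantile normalization. It was 1 of 11 under cyclic loess and under median centring, with medians of 0.067 and 0.065 log2. Notch1 and Rfng lost the threshold under both. Against the 2 h control 1 member was 1.5-fold higher, and against the 6 h control 2 were higher and 1 lower. Over all genes 4.53% were 1.5-fold higher against the 24 h control. The ligand Jag1 had probe sets at -1.19 and 0.31 log2, and Nrarp, a feedback target, was 0.11 and 0.13 log2 higher. Dlk2, which encodes a non-canonical Delta-like protein, was 1.32 and 1.45 log2 higher.

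The remaining genes above 2-fold had varied roles. Ghr, the growth hormone receptor, was higher in all 3 probe sets, which read 8.08, 7.22 and 6.35 log2 with APAP, against 6.42, 5.68 and 4.76 log2 in control. Socs2, a growth hormone target that dampens the receptor's signal, was lower (-1.09 and -1.28 log2). This turned on the control array, since Socs2 was not 1.5-fold lower in every probe set against the 2 h or the 6 h control. Bscl2, which encodes the lipid droplet protein seipin, read 8.70 and 10.41 log2 with APAP, against 6.79 and 8.90 log2 in control. Plod2, a collagen lysyl hydroxylase, was 1.58 and 1.64 log2 higher. It stood with Pfkp and P4ha1 as the 3 of 13 glycolysis and hypoxia list members that passed 1.5-fold, beside 4.53% of all genes 1.5-fold higher. P4ha1 was not above all 3 control arrays in every probe set. Lif, an interleukin-6 family cytokine, read 7.96 and 6.03 log2 with APAP, against 6.66 and 4.74 log2 in control. The membrane transporters Slc22a18 (1.58 and 1.59 log2) and Slc31a2, a copper transporter (1.05 log2 in both), were higher. Psrc1, a spindle protein, was 1.35 and 1.62 log2 higher, and Pdrg1 1.42 and 1.72 log2. Chid1, Arhgap23, Ddit4l and St3gal5 completed the 19, with nearer probe sets between 1.004 and 1.11 log2.

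**Figure D3:**
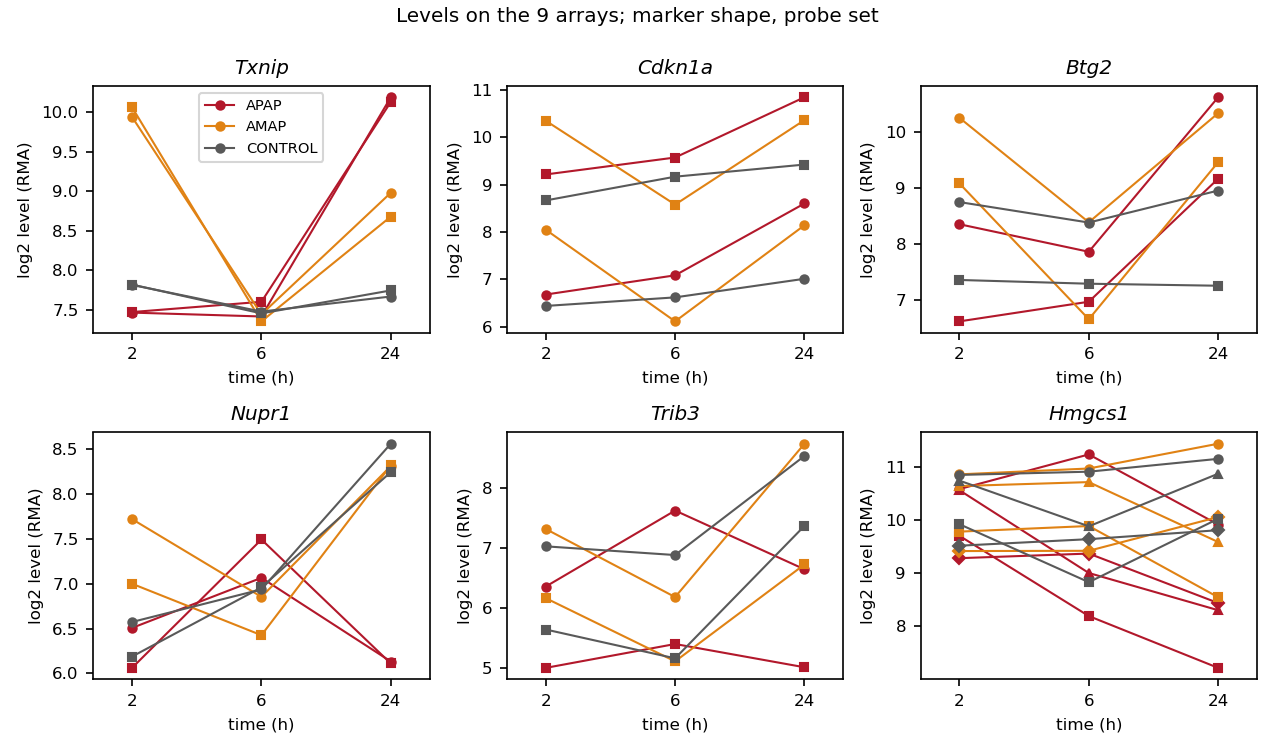
Log2 levels (vertical axis) of 6 genes at 2, 6 and 24 h (horizontal axis) on the APAP, AMAP and control arrays, 1 line per probe set. Txnip, Cdkn1a and Btg2 stand above control with APAP at 24 h; Nupr1 and Trib3 climb on the control arrays by 24 h and do not on the APAP arrays, and all 4 probe sets of Hmgcs1 are below control with APAP at 24 h.

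The ATF4 list lay on the lower side. Of its 18 members, 0 were 1.5-fold higher and 9 were 1.5-fold lower in every probe set, 5 of them by 2-fold, with a median of -0.76 log2. Over all genes 3.22% were 1.5-fold lower and 1.05% 2-fold lower. In 15 members every probe set was below control. Without probe sets whose name ends in _s_at, _x_at or _a_at, only 4 members were left, of which 1 was 1.5-fold lower, with a median of -0.40 log2. Nupr1, a stress-induced chromatin protein, read 6.13 and 6.11 log2 with APAP, against 8.56 and 8.24 log2 in control. Trib3, a pseudokinase that restrains ATF4 and Akt, read 6.64 and 5.004 log2 with APAP, against 8.53 and 7.36 log2 in control. The difference was -2.43 and -2.13 log2 for Nupr1 and -1.89 and -2.36 log2 for Trib3. Psat1, which makes phosphoserine, read 9.59 and 7.51 log2 with APAP, against 10.96 and 9.77 log2 in control. Asns, asparagine synthetase, was lower (-1.12 and -1.84 log2), and Vldlr, a lipoprotein receptor, likewise (-1.17 and -1.53 log2). Atf4 itself had probe sets at -0.32 and -2.98 log2. The aminoacyl-tRNA synthetases, which ATF4 also drives, had 2 of 10 members 1.5-fold lower and 0 higher. They were Iars (-0.67 and -0.95 log2) and Eprs (from -0.59 to -0.83 log2), for isoleucine and for glutamate with proline, and the list's median was -0.45 log2. Against the 2 h control 0 of 10 synthetases were 1.5-fold lower, with a median of 0.045 log2. Against the 6 h control it was also 0 of 10, with a median of -0.151 log2.

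These ATF4 values turned on the choice of control array. On the control arrays Nupr1 read 6.57 and 6.19 log2 at 2 h, 6.94 and 6.96 log2 at 6 h and 8.56 and 8.24 log2 at 24 h. Trib3 read 7.02 and 5.63 log2 at 2 h, 6.88 and 5.15 log2 at 6 h and 8.53 and 7.36 log2 at 24 h. Both genes were highest among the controls at 24 h, and the APAP array at 24 h lay below all 3 but nearer to the earlier 2. Against the 2 h control, 1 of 17 list members was 1.5-fold lower and 1 higher, where 2.7% of all genes were lower. Against the 6 h control 3 of 16 were lower and 2 higher, where 2.28% of all genes were lower. The list's median was -0.07 and -0.15 log2 against these 2 controls, beside -0.76 log2 against the 24 h control.

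Promoter stretches are shown for the 4 ATF4-list genes whose window held the letters TGATGCAA on either strand, the core of the C/EBP-ATF response element. Windows ran from 250 bases before to 50 bases after the start and come from RefSeq on GRCm38.p6. Of the 9 genes that were 1.5-fold lower, 8 had a window and 4 of these held the letters, against 0 of 9 other list members and 1.03% of all 27025 genes. Each stretch is given 5′ to 3′ along the gene's strand with the matching letters in capitals, here in the reverse orientation. Slc1a4 and Herpud1 are named for this match and not for the size of their difference.
Nupr1, chr7:126625549-126625604, minus strand: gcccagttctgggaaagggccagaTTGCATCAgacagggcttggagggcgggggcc
Vldlr, chr19:27216796-27216851, plus strand: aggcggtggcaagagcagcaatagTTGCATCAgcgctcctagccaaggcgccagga
Herpud1, chr8:94386293-94386348, plus strand: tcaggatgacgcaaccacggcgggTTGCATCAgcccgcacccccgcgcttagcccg
Slc1a4, chr11:20332686-20332741, minus strand: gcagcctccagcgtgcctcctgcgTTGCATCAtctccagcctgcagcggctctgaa
Herpud1, an ER-associated degradation factor, was lower (-0.76 and -0.77 log2), and Slc1a4, a neutral amino acid transporter, likewise (from -0.61 to -1.0 log2). A match is a description of letters and not a shown binding site. The shorter CCAAT letters were in 4 of the 8 windows, 6 of the 9 others and 41.06% of all genes.

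Cholesterol synthesis genes were lower as well. Of 11 members, 0 were 1.5-fold higher and 4 were 1.5-fold lower in every probe set, and 9 had every probe set below control. Over all genes 3.22% were 1.5-fold lower. The median was -0.77 log2. Hmgcs1, which makes HMG-CoA ahead of the rate-limiting reductase, read 9.91, 7.21, 8.30 and 8.44 log2 with APAP, against 11.15, 10.02, 10.87 and 9.81 log2 in control. All 4 probe sets were lower, with differences from -1.24 to -2.81 log2. Cyp51, a lanosterol demethylase, read 5.10 and 9.15 log2 with APAP, against 6.51 and 9.98 log2 in control. Fdft1, squalene synthase, was lower (-0.63 and -0.92 log2), and Stard4, a sterol carrier, likewise (-0.65 and -0.90 log2). Mvk, mevalonate kinase, was the 1 member higher in every probe set, at 0.21 and 0.31 log2. The list was also on the lower side against the other control arrays. Against the 2 h control 5 of 11 members were 1.5-fold lower and against the 6 h control 5, with medians of -0.65 and -0.54 log2. Over all genes 2.7% and 2.28% were lower there. These comparisons share the single APAP array at 24 h, so they vary the control only and do not check that array. Of the 2 lower genes with a promoter window, Hmgcs1 held the sterol regulatory letters CACCCCAC, which were in 0 of 7 other members and 3.30% of all genes.
Hmgcs1, chr13:119690191-119690246, plus strand: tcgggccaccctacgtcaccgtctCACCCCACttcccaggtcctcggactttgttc
Here the capitals mark these letters. CCAAT was in both lower genes and in all 7 others with a window.

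Other lipid genes were mixed. In the fatty acid synthesis list Elovl6, a fatty acid elongase, was lower (-0.76 and -1.14 log2), whereas Dgat2, which makes triglyceride, was 0.71 log2 higher in both probe sets. These were the only members of 11 past 1.5-fold, and the median was -0.43 log2. Cd36, a fatty acid transporter, read 6.37 and 6.22 log2 with APAP, against 7.38 and 7.45 log2 in control, and was the 1 of 7 fatty acid oxidation list members past 1.5-fold. Against the 2 h and the 6 h control, Cd36 was not 1.5-fold lower in every probe set. Aqp9, the glycerol channel of hepatocytes, read 5.44 and 5.64 log2 with APAP, against 6.94 and 7.47 log2 in control. As for Nupr1, its 2 h control was low, at 5.20 and 5.73 log2. Among secreted liver proteins Apoa1, the main protein of high density lipoprotein, was the 1 of 6 members past 1.5-fold. Its 4 probe sets read 11.85, 12.65, 12.05 and 12.01 log2 with APAP, against 10.70, 11.31, 11.06 and 10.95 log2 in control. Kng1, Afm, Vtn and Serpina1b were higher in every probe set by 0.38 to 0.84 log2, and Ttr had probe sets from -0.48 to 0.52 log2. The list's median was 0.60 log2. Cp, ceruloplasmin, went the other way and differed by -0.63 to -1.44 log2 in 5 probe sets. It was not below all 3 control arrays in every probe set.

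Tgfbr1, the type I TGF-beta receptor, was among the 20 lowest genes. Its probe sets read 6.46, 4.84 and 7.23 log2 with APAP, against 7.92, 6.997 and 9.91 log2 in control. The same probe sets read 6.65, 5.72 and 8.60 log2 on the 2 h control, and the 24 h control was the highest of the 3 controls in each. Skil, a TGF-beta feedback repressor, was lower (-0.94 and -1.54 log2), but not below all 3 control arrays in every probe set. With Tgfbr1 it made up the 2 of 17 matrix and TGF-beta members past 1.5-fold, beside 3.22% of all genes 1.5-fold lower. In every probe set 7 members were above and 7 below control. Ccn4, a matricellular protein, was lower (-1.0 and -1.73 log2). Other lower genes lay outside this list. Rhoa, the small GTPase that builds stress fibres, was lower (-1.03 and -1.17 log2). Cat, which encodes the peroxide-degrading enzyme catalase, read 5.93 and 8.004 log2 with APAP, against 9.00 and 9.19 log2 in control. The difference was -3.07 log2 in the first probe set and -1.18 log2 in the second. Against the 6 h control Cat was not 1.5-fold lower in every probe set.

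Several of the lowest genes encode chromatin proteins but are not on the chromatin regulator list. H1f2, a linker histone, read 9.42 and 5.50 log2 with APAP, against 11.17 and 9.99 log2 in control. H2az1, a variant histone, was lower (-1.21 and -2.18 log2). Bmi1, a Polycomb protein, was lower (-1.36 and -1.48 log2), Actl6a, a remodelling complex subunit, likewise (-1.39 and -1.48 log2), and so was Ctbp2, a corepressor (-1.44 and -2.64 log2). Of the 22 members of that list 2 passed 1.5-fold, Hmgb2 (-1.12 and -1.78 log2) and Suz12 (from -0.61 to -0.68 log2), and 0 were higher. Over all genes 3.22% were 1.5-fold lower. These values turned in part on the control array. Against the 6 h control Bmi1, H2az1 and Hmgb2 did not meet the 1.5-fold rule, which needs at least 2 probe sets at the level. H1f2 did not meet it against the 2 h control. Of 21 list members, 2 were 1.5-fold lower against the 2 h control and 0 against the 6 h control. Rnpc3, a protein of the minor spliceosome, was the lowest gene by its nearer probe set, whereas H1f2 was lower by the mean. It read 3.17 and 3.09 log2 with APAP, against 5.91 and 5.84 log2 in control. Both APAP values were under the level used to choose probe sets, so the size of the difference is uncertain. Rnpc3 did not meet the 1.5-fold rule against the 2 h or the 6 h control. Of 43 splicing factors and hnRNPs 4 were 1.5-fold lower and 0 higher, the others being Tra2b, Hnrnpr and Sfpq, while 21 had probe sets on both sides of 0. Over all genes 3.22% were 1.5-fold lower. Sfpq was not below all 3 control arrays in every probe set. The list's median was -0.21 log2 with APAP. With AMAP at 24 h it was -0.48 log2, and 3 of 43 members were 1.5-fold lower, beside 1.85% of all genes. Tmem123, Ppp1cb, Ciao2a, Btg1, Tpbg, Nectin3 and Vamp7 were the other genes among the 20 lowest, with nearer probe sets between -1.18 and -1.75 log2.

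Some of these lower genes were also low on the other arrays with a low r2-Bs-dap middle signal. Rnpc3 read 3.17 and 3.09 log2 on the APAP array at 24 h, 3.20 and 3.93 log2 on the AMAP array at 24 h and 3.15 and 4.09 log2 on the APAP array at 6 h. On the 2 h arrays it read between 5.33 and 5.87 log2. The 6 h control, whose spike-in signal was not low, read 5.32 and 4.53 log2. Ppp1cb, a catalytic subunit of protein phosphatase 1, read 6.90 and 5.53 log2 with APAP at 24 h, 6.63 and 5.13 log2 with AMAP at 24 h and 6.60 and 5.87 log2 with APAP at 6 h, against 8.58 and 8.49 log2 in the 24 h control. Among genes with any probe set 2-fold lower than its own control, another probe set was at or above control in 195 of 428 for APAP at 24 h, in 195 of 365 for AMAP at 24 h (13.8% of 2645 genes) and in 160 of 451 for APAP at 6 h (16.9% of 2669). For APAP at 2 h it was 2 of 39 (1.51% of 2581). Disagreement was also seen between arrays without a low spike-in signal. Among genes with any probe set 2-fold higher than the 6 h control, another probe set was at or below it in 103 of 198 for AMAP at 6 h (7.5% of 2640) and in 62 of 136 for the 24 h control (5.19% of 2619). The part of RNA or labelling quality in these values was not tested.

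The widest disagreement between probe sets of 1 gene was in housekeeping genes. Psmb4, a proteasome subunit, had probe sets at 3.75 and 11.77 log2 with APAP, against 8.34 and 11.53 log2 in control, differences of -4.58 and 0.25 log2. Tmem109 (from -3.67 to 0.20 log2), Btf3, a translation factor subunit (-3.51 and 0.16 log2), and Mdh1, cytosolic malate dehydrogenase (from -3.19 to 0.25 log2), were alike in this. The mitochondrial ADP/ATP carrier Slc25a5 had 8 probe sets that ran from -3.14 to 0.26 log2, and the tubulin cofactor Tbca 3 that ran from -3.08 to 0.24 log2. No direction is given for these genes.

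Several pathways linked to APAP injury showed little agreement on a difference. Of 23 respiratory chain members, 0 were 1.5-fold higher or lower in every probe set, and 15 had probe sets on both sides of 0. The same count of 0 held for 14 proteasome, 14 ER chaperone and 19 ribosome biogenesis members. Among 12 targets of NRF2, the transcription factor that KEAP1 releases under electrophilic stress, Gstm1, a glutathione transferase, was higher by 0.68 to 0.91 log2 and Cat was lower. The reductase Gsr differed by -0.0048 and 0.0029 log2, and Gclc, which limits glutathione synthesis, was lower (-0.06 and -0.49 log2). Of 6 glutathione and cysteine genes 1 passed, the glutaredoxin Glrx, 0.96 log2 higher in both. Heat shock genes were split between Hspb1 (0.71 and 0.75 log2) and Hspa4l (-0.62 and -0.70 log2) among 13 members. Of 15 mitosis members only Cks2, a cyclin-dependent kinase partner, passed (-0.63 and -0.68 log2), and of 17 replication members only the clamp loader subunit Rfc4 (-0.82 and -1.80 log2). The letters TTTGAA of the cell cycle homology region were not in the Cks2 window, though 8 of 9 other list members with a window and 20.23% of all genes had them. Lysosome and autophagy members had a median of 0.28 log2, with the kinase Ulk1 (0.72 and 0.87 log2) and the peptidase Tpp1 (0.64 and 1.26 log2) past 1.5-fold of 16. A 1.5-fold difference in every probe set was seen in 4.53% and 3.22% of all genes, so 1 gene in a list of 15 is close to the background.

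**Figure D4:**
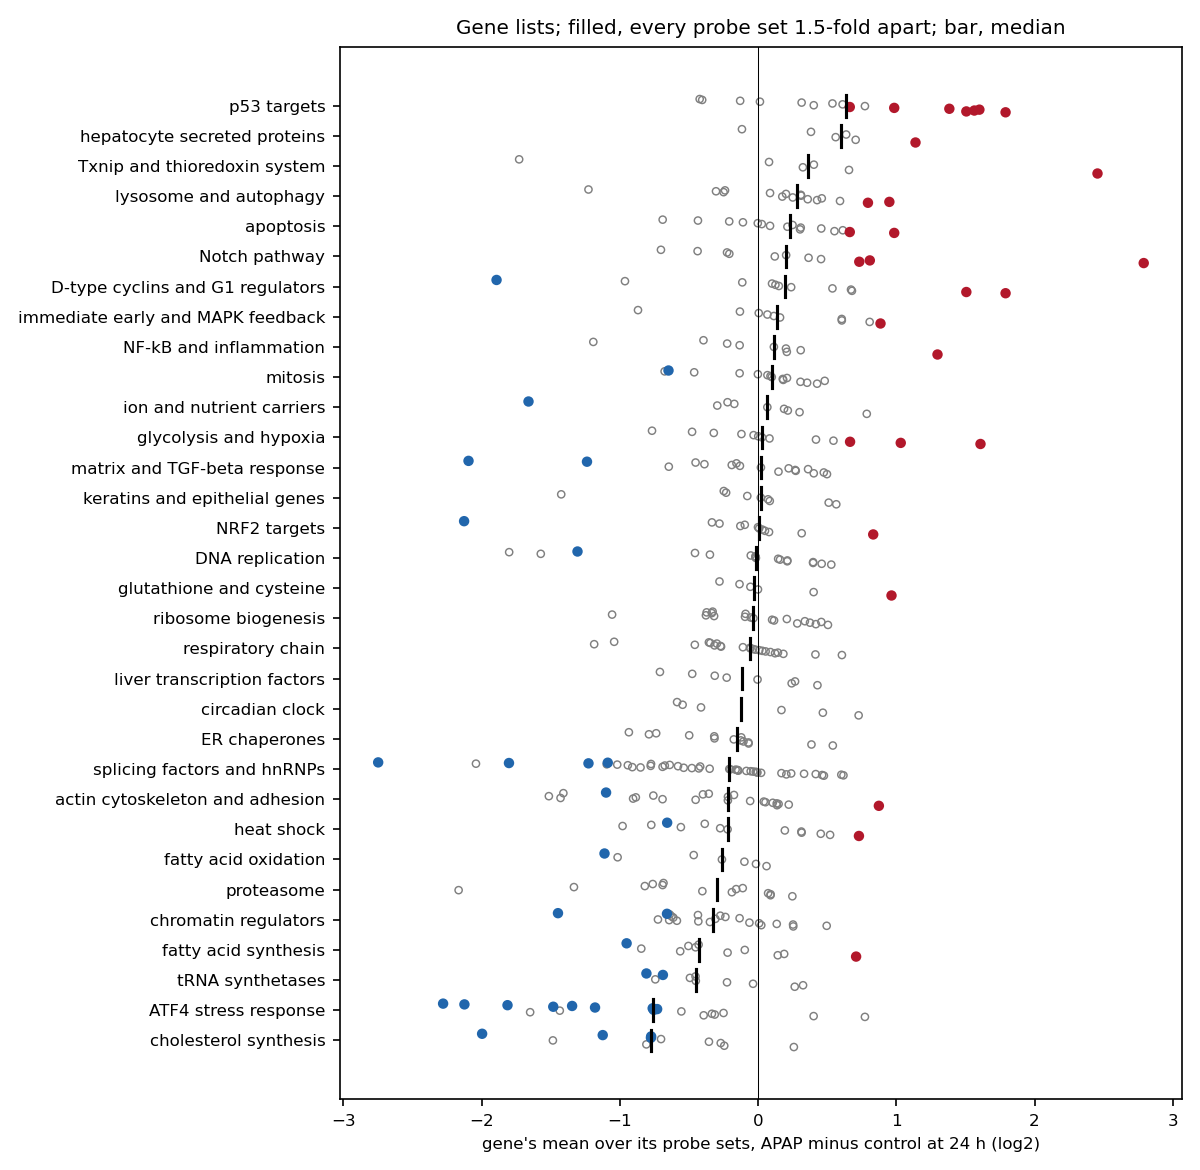
Each circle is 1 gene, placed at the mean of its probe sets' APAP minus control differences at 24 h in log2 (horizontal axis), for gene lists with 6 or more members; filled circles have every probe set 1.5-fold apart and bars mark medians. The p53 target list has the highest median, 0.64 log2, and the cholesterol synthesis and ATF4 lists the lowest, -0.77 and -0.76 log2.

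The earlier APAP arrays were set against their own controls, which share no array with the 24 h comparison. At 2 h 10 genes were 2-fold higher (0.387%) and 7 lower (0.271%), and at 6 h 3 were higher (0.112%) and 16 lower (0.599%). Of the 19 genes higher at 24 h, 14 had at least 2 probe sets at the level at 2 h and 14 at 6 h, and 0 of these were among the 2-fold higher genes of either time. Of the 28 lower genes, 23 could be compared at 2 h, where 0 were 2-fold lower, and 22 at 6 h. There Ciao2a and Nectin3 were also 2-fold lower, which is 9.09% of the 22 and 12.5% of the 16. The p53 list was not on the higher side at 6 h, when 0 of 15 members were 1.5-fold higher and 4 were lower, with a median of -0.42 log2. Over all genes 1.46% were 1.5-fold higher and 4.31% lower at 6 h. Mdm2 differed by -0.11 and -0.33 log2 at that time. Cdkn1a was 0.24 and 0.55 log2 above control at 2 h and 0.41 and 0.47 log2 at 6 h, and Aen was 0.62 and 0.68 log2 above control at 2 h. Btg2 was below control at 2 h (-0.40 and -0.74 log2) and at 6 h (-0.32 and -0.52 log2). Its higher signal was thus seen at 24 h only among the APAP arrays. Nupr1 was 0.13 and 0.53 log2 above control at 6 h and Trib3 0.24 and 0.74 log2 above, opposite to 24 h.

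AMAP at 24 h was compared with the same 24 h control array, so the 2 comparisons share it and their values are only set side by side. AMAP had 5 genes 2-fold higher (0.189%) and 6 lower (0.227%), and at 1.5-fold 36 higher (1.36%) and 49 lower (1.85%). Of 15 p53 list members, 10 were above control with AMAP by their mean and 5 below. Tnfrsf10b (-0.131 and 0.516 log2) and Apaf1 (-0.065 and 0.178 log2) had probe sets on both sides of control with AMAP. Btg2 differed by 1.67 and 1.91 log2 with APAP and by 1.38 and 2.21 log2 with AMAP. Mdm2 differed by 0.95 and 1.82 log2 with APAP and 1.35 and 1.61 log2 with AMAP. Lif, which is not on the p53 list, differed by 1.29 and 1.30 log2 with APAP and 1.64 and 1.77 log2 with AMAP. In these 3 genes the compounds overlapped or AMAP was the higher. Txnip differed by 2.52 and 2.39 log2 with APAP and by 1.31 and 0.94 log2 with AMAP, and on the AMAP array at 2 h it read 9.94 and 10.06 log2, close to APAP at 24 h. Ghr was 1.55 to 1.65 log2 higher with APAP and 0.13 to 0.39 log2 higher with AMAP, and Bscl2 1.51 and 1.91 log2 with APAP and 0.12 and 0.16 log2 with AMAP. Apoa1 was 0.99 to 1.35 log2 higher with APAP and between -0.15 and 0.08 log2 with AMAP. Nupr1 was lower (-2.13 and -2.43 log2) with APAP and between -0.25 and 0.08 log2 with AMAP, and Aqp9 was lower (-1.495 and -1.83 log2) with APAP and between -0.11 and 0.06 log2 with AMAP. The isomers thus stood far apart on these last 5 genes. Directly, APAP minus AMAP at 24 h was -2.18 and -2.21 log2 for Nupr1, -2.10 and -1.72 log2 for Trib3, 2.34 and 1.78 log2 for Notch3 and 1.21 and 1.45 log2 for Txnip. By list, 5 of 15 p53 members were 1.5-fold higher with AMAP, 1 of 18 ATF4 members was lower and 0 of 11 cholesterol members were lower. By their mean, 8 of the 11 cholesterol members were below control with AMAP and 3 above, with a median of -0.29 log2. For the ATF4 list 10 were below and 8 above, with a median of -0.12 log2. Some members were near to their APAP values. With AMAP, Vldlr was lower (-1.06 and -1.39 log2), and so was Stard4 (-0.42 and -0.73 log2). This was 1 pair of arrays at 1 dose, without replicates, so no interval of a difference can be given.

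**Figure D5:**
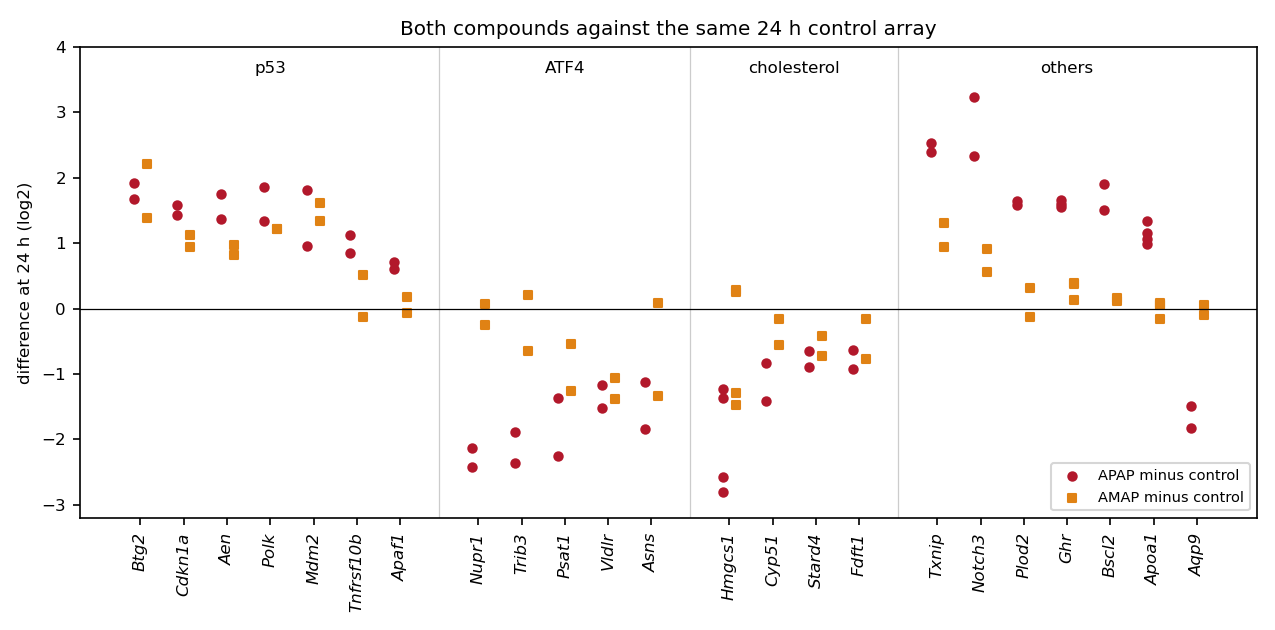
APAP minus control (red circles) and AMAP minus control (orange squares) at 24 h in log2, 1 mark per probe set, for genes of the p53, ATF4 and cholesterol lists and others; both use the same control array. For Btg2, Cdkn1a, Polk and Mdm2 every mark of both compounds is at or above 0.94 log2, whereas for Nupr1, Bscl2, Apoa1 and Aqp9 the AMAP marks lie between -0.25 and 0.16 log2.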

How the data were processed

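The authors deposited log2 values per probe set for 9 arrays. Per the submitters' processing notes they used RMA and Affymetrix Expression Console, whose versions those notes do not name. The sources used here do not say whether 1 run covered all arrays. RMA gives the arrays of 1 run the same distribution of probe intensities, which hides a shift in total RNA per cell. It also compresses differences of dim probe sets. The deposited probe set values still differed in distribution. Their median was 5.751 log2 on the APAP array at 24 h, the highest of the 9, and 5.613 log2 on its control. The lower quartiles were 3.817 and 3.577 log2. Groups came from the sample titles.

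Of 22690 probe sets, 64 were control probe sets, 20380 had 1 gene symbol in GEO's platform annotation, 691 several and 1555 none; only those with 1 symbol were used, and 4956 genes had at least 2. Differences were APAP minus control on the log2 scale (Python 3.11.15, pandas 2.3.3), with thresholds of 2-fold and 1.5-fold. No p-value was computed. The step was tested on simulated data. Alternatives were cyclic loess, quantile normalization (limma 3.58.1, R 4.3.3), median centring, other filters, other agreement rules and other control arrays.

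Genes were named by rule: the 20 highest and 20 lowest with every probe set 2-fold apart, up to 5 per gene list past 1.5-fold, and the 6 with the widest disagreement. The 37 pathway and 5 marker lists held 1328 genes, of which 1198 were measured and 441 were among the 2673. The genes and lists were chosen with earlier results of these data known. Some genes are in more than 1 list. The number of arrays limits the precision. Promoter windows came from RefSeq.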

Additional observations from a re-analysis of the deposited data

Results flagged for a closer look

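Of the 2673 genes, 9 had every probe set at or above the level at least 1.5-fold apart from control at 24 h with APAP in 1 direction and at least 1.5-fold apart in the opposite direction at an earlier time, against that time's own control. The difference between the times was not tested, since each time was 1 array per group, and values are of the nearer probe set. Ankrd1 and Herpud1 were named for this pattern or a promoter match, after their values were seen. The transporter Slc22a18 was 1.583 log2 higher at 24 h and lower at 2 h (-0.62). Dgat2, which makes triglyceride, was 0.706 log2 higher at 24 h and lower at 2 h (-1.05). Notch1 was 0.703 log2 higher at 24 h and lower at 2 h (-0.74), Gstm1, a glutathione transferase, 0.684 log2 higher and lower at 2 h (-0.93 over 2 of its 3 probe sets, the other being under the level then, at -0.55), and the lysosomal peptidase Tpp1 0.639 log2 higher and lower at 2 h (-0.63). Ccn4 ran the other way, at -1.0 log2 at 24 h and 0.98 log2 at 2 h. Apaf1, the apoptosome scaffold, was 0.609 log2 higher at 24 h and lower at 6 h (-0.79). Ankrd1, a YAP target, was 0.818 log2 higher at 24 h and lower at 6 h (-0.65). Herpud1 was lower at 24 h (-0.76) and 0.763 log2 higher at 6 h. Of the 6 genes opposed between 2 h and 24 h, 5 were first lower and later higher than control. All genes leaned the same way. At 1.5-fold in every probe set, 47 of 2581 were higher and 77 lower at 2 h, and 39 of 2669 higher and 115 lower at 6 h. At 24 h 121 of 2673 were higher and 86 lower. No pattern is therefore read from these 9 genes or their order.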

How the results depend on the processing

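The counts of genes with every probe set 2-fold higher and lower with APAP were 19 and 28. They were 24 and 23 with no filter on low values, 15 and 35 under cyclic loess, 14 and 36 under median centring and 17 and 31 under quantile normalization, all within 1.5 times. They were 121 and 86 at 1.5-fold, 11 and 18 with the filter at the upper quartile of all values, 8 and 6 without probe sets whose name ends in _s_at, _x_at or _a_at (1177 genes left), 36 and 123 when the mean of the probe sets had to be 2-fold apart, and 125 and 428 when any 1 had to be. Controls of another time were added after seeing the data: 29 and 13 against the 2 h control, and 10 and 7 against the 6 h control. Of the 28 lower genes, all were 2-fold lower under cyclic loess and median centring and 26 under quantile normalization; of the 19 higher genes 14, 14 and 15 were. Of the named genes past a threshold, 12, 14 and 10 lost it under these scalings. A further 2, Ddit4l and Tnfrsf10b, had fewer than 2 probe sets at the level there and gave no value. None of those with a value changed direction. Under each, 5 of 14 p53 targets were 1.5-fold higher, beside 7 of 16. List medians changed sign in 6, 8 and 3 of 36 lists under these scalings and in 6 of 25 without the suffixed probe sets, and most of these were within 0.1 log2 of 0. Those of at least 0.1 log2 that changed sign were heat shock (0.19), proteasome (0.02), Notch (-0.044) and NF-kB (-0.016) without the suffixed probe sets, and under median centring immediate early genes (-0.001) and NF-kB (-0.024). No paired analysis was possible because each group was 1 array; for the same reason no replicate could be left out.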

Other observations

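Fosl1, a subunit of the AP-1 transcription factor, was 0.61 and 1.16 log2 higher with APAP at 24 h. At 2 h it read 7.70 and 6.05 log2 with APAP, against 5.44 and 3.64 log2 in control. Gjb1, the main gap junction protein of hepatocytes, was 0.80 and 0.95 log2 higher at 24 h.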
